A study of Mus musculus with 115 samples.

Results

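The macrophage and complement C1q genes examined here were Adgre1, Cd68, Csf1r, Cd163, Mrc1, C1qa, C1qb, C1qc, Lyz2 and Itgam. These 10 genes were chosen by name, and all 10 were found among the 45699 genes of the expression table. Each was described over all libraries, 79 and 36 in the sets defined below, and was then set against Mki67, a gene of dividing cells, Chga, a gene of neuroendocrine cells, and Ptprc, which encodes CD45, the surface protein of leukocytes.

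RNA was sequenced from the prostates of male (TRAMP x WSB) F2 mice that carried the TRAMP transgene, in which the minimal probasin promoter drives the SV40 T antigens in prostate epithelium. WSB/EiJ, the strain crossed to TRAMP, is inbred and descends from wild mice. The labels place all libraries in 1 group, each with its own mouse label, so there were no treated or control groups to compare. The labels W7822 and W78022 are nearly alike, and whether they name different mice is not known. The library of W7822 ranked 4 among the other 78 in its correlation over genes with that of W78022 (r = 0.955), and no member changed its call in the 79 libraries defined below without W78022. No record of tumor burden, genotype or age was used for any mouse here, and small prostates gave RNA from the ventral lobe alone. The values are in TPM, a share of transcripts that divides by transcript length and scales every library to the same total, so levels can be compared between genes but the sequencing depth behind them is unknown.

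Macrophages are phagocytic cells that live in most tissues, clear dying cells and build up in many tumors. Their growth and survival depend on the receptor encoded by Csf1r. C1q, the recognition protein of the classical complement pathway, is assembled from the products of C1qa, C1qb and C1qc, and macrophages are a main source of it in tissues. The levels below are those of whole tissue, in which fewer macrophages and less RNA per macrophage cannot be told apart.

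The libraries separated into 79 and 36 on the first principal component of every gene whose mean reached 1 TPM, and the same 79 and 36 were found when the members and the 3 reference genes were left out of that component. Relations were therefore computed within the 79 and within the 36, never over both, and the 79 and 36 were not tested against each other. Mki67 ranged from 0.39 to 25.73 TPM in the 79 libraries and from 20 to 144.47 TPM in the 36. Between 10358 and 15824 genes reached 1 TPM in a library, and the 20 most abundant genes held between 48.9% and 81.8% of its TPM. The summed TPM of 7 genes of prostate epithelium ranged from 10.87 to 1682.35. The eighth gene of that list, Spink1, reached 57154.2 TPM in W5005 and was left out of this sum.

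Lyz2 and the C1q chains were the most abundant of the members. Lyz2, which encodes the lysozyme of phagocytes, ranged from 6.69 TPM through a median of 66.67 to 801.68 TPM. C1qa had a lowest value of 3.79, a median of 32.15 and a highest value of 236.29 TPM. C1qb ran from 2.76 to 165.22 TPM with a median of 18.97. C1qc ran from 2.64 to 140.64 TPM with a median of 18.47. These 4 genes were at or above 1 TPM in every library.

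The surface receptors were lower. Csf1r had a median of 5.78 TPM, with a range of 0.75 to 54.19, and was under 1 TPM in 4 libraries. The median of Mrc1, which encodes the mannose receptor CD206, was 4.99 TPM (0.42 to 135.57), and it was under 1 TPM in 7 libraries. Adgre1, which encodes the macrophage protein F4/80, had a median of 3.7 TPM (0.33 to 32.79) and was under 1 TPM in 10. Cd68 encodes a glycoprotein of the lysosome and had a median of 3.4 TPM (0.63 to 21.89), with 3 libraries under 1 TPM.

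Itgam and Cd163 were the least abundant. Itgam, the CD11b chain of complement receptor 3, had a median of 1.59 TPM, from 0.11 to 33.01, and reached 1 TPM in 81 libraries. Cd163, the scavenger receptor for haptoglobin bound to hemoglobin, had a median of 1.01 TPM, from 0.01 to 37.23, and reached 1 TPM in 58 libraries (50.4%). No member was at 0 in any library. The 90th percentile lay 19.5 times above the 10th for Cd163 and 4.97 times above it for Csf1r, the widest and the narrowest of the 10.

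**Figure D1:**
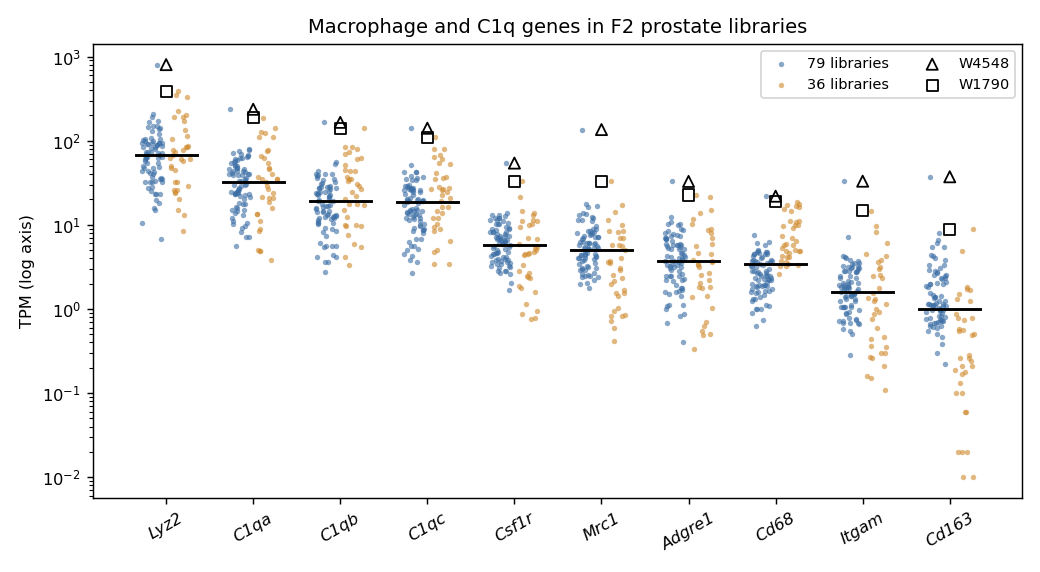
TPM of each member gene in the 79 and 36 libraries on a log axis, 1 point per library, in 2 colors and with a bar at the median of all libraries. The triangle is the library of mouse W4548, the highest in all 10 genes (Lyz2 at 801.68 TPM), and the square is that of mouse W1790, the next highest in each.

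The order of the medians held beyond the spread between libraries at 4 of its 9 steps. Lyz2 exceeded C1qa in all libraries but 1, by a mean of 1.04 ± 0.41 on the log2(TPM + 1) scale (SD over the 79 and 36 libraries). C1qa exceeded C1qb in all but 4 libraries, C1qc exceeded Csf1r in all and Cd68 exceeded Itgam in all but 7. C1qb and C1qc, Csf1r and Mrc1, Mrc1 and Adgre1, Adgre1 and Cd68, and Itgam and Cd163 did not differ beyond the SD of their difference. Lyz2 and Itgam are uncertain in level, because reads can be shared with a near-identical copy. Of the stretches of 31 bases in the Lyz2 transcript, 32.8% also occur in Lyz1, which lies 5475 bases away on chromosome 10 and had a median of 2.3 TPM. For Itgam 68.1% occur in another gene, mostly Gm49368. No gene of that name was found in the expression table, so how such reads were assigned is unknown. For Adgre1, Cd68, Mrc1 and the C1q chains the share was 0.

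The C1q genes lie side by side on chromosome 4 (GRCm38, GENCODE M21). C1qb spans 136880129 to 136886187, C1qc 136889804 to 136893065 and C1qa 136895917 to 136898803, all on the minus strand and with 3 exons each. Gaps of 3616 and 2851 bases separate them. Of the TPM summed over the 3 chains, C1qa held 45.3% ± 5.14, C1qb 28.4% ± 3.51 and C1qc 26.2% ± 2.40 (SD over the same libraries). The C1qb to C1qc difference averaged 0.11 ± 0.15 on the log2 scale, the smallest SD among the 45 pairs of members, and C1qb was the higher in 89 libraries. The C1qa to C1qb difference averaged 0.64 ± 0.31 and the C1qa to C1qc difference 0.74 ± 0.27.

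Promoter sequence from RefSeq (GRCm38.p6) was used for 7 members, Cd68, Cd163, Mrc1, C1qb, C1qc, Lyz2 and Itgam. The promoters of the other members were not searched, so the share of member promoters given below does not cover every member. Spi1, the macrophage transcription factor PU.1, binds sites with the core GAGGAA. Whether such sites bear on the levels of the members was not tested. These letters were searched on both strands in the 250 bases before each start. They occurred in 5 of the 7 promoters (71.4%) and in 23.3% of 32851 promoters of the same length. Cd163 and Lyz2 had none. The windows below are written 5′ to 3′ on the strand of the gene, with each match, or its complement, in capitals, and the Mrc1 window holds 2 of the 3 matches of that promoter.
C1qb: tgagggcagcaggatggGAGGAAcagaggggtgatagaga
C1qc: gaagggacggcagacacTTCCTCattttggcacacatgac
Cd68: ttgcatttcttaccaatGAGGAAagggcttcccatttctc
Itgam: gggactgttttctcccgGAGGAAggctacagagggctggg
Mrc1: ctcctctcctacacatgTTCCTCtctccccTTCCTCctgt

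The C1qb window is chr4:136886208-136886247, and its match begins 30 bases before the start. The C1qc window is chr4:136893085-136893124, and its match begins 193 bases before the start. The Cd68 window is chr11:69666373-69666412, the first of 2 windows in Itgam chr7:128062539-128062578 and the first of 3 windows in Mrc1 chr2:14229217-14229256. A match is a description of the sequence and not evidence of binding.

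The library of mouse W4548, one of the 79, was the highest in all 10 members and in Ptprc (45.06 TPM). The library of mouse W1790, one of the 36, was the next highest in all 10 and in Ptprc (22.76 TPM). Genes of other cells were high there too. The summed TPM of 6 fibroblast genes was 5669.11 in W4548, the highest of all libraries, against a median of 239.92. That of 5 endothelial genes was 84.93, also the highest, and that of 10 neutrophil genes was 156.64 against a median of 2.5. The summed TPM of 10 T and NK cell genes was 10.23, which ranked 23, and the 7 genes of prostate epithelium ranked 88. The counts of members, pairs and listed genes below were repeated without W4548 in the 79 and without W1790 in the 36. They are given where they moved by more than 1.5 times or a named gene lost its call.

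The members varied together. In a limma model of every gene on each member in turn, 45 of 45 pairs rose together in the 79 libraries and 45 of 45 in the 36 (adjusted p below the 0.05 threshold, Benjamini-Hochberg over all genes). The background was high in the 79, where 77.5% of all tests of a gene on a member were called positive, from 68.2% on Cd163 to 83% on Csf1r. In the 36 it was 40.4%, from 34.3% to 44.2%. Pearson's r of the pairs ran from 0.691 to 0.991 with a median of 0.907 in the 79 libraries, and from 0.660 to 0.995 with a median of 0.915 in the 36.

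The C1q chains were the most tightly linked pairs and Cd163 the least. For C1qb with C1qc, r was 0.991 and Spearman's rho 0.989 in the 79, and r and rho were 0.995 in the 36. C1qa with C1qb gave r = 0.984 and 0.989. The permutation p of each was 1e-05, the smallest that 100000 permutations can give. Cd163 had its highest r with Mrc1 (0.88 in the 79 and 0.86 in the 36) and r of 0.69 and 0.68 with C1qa.

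**Figure D2:**
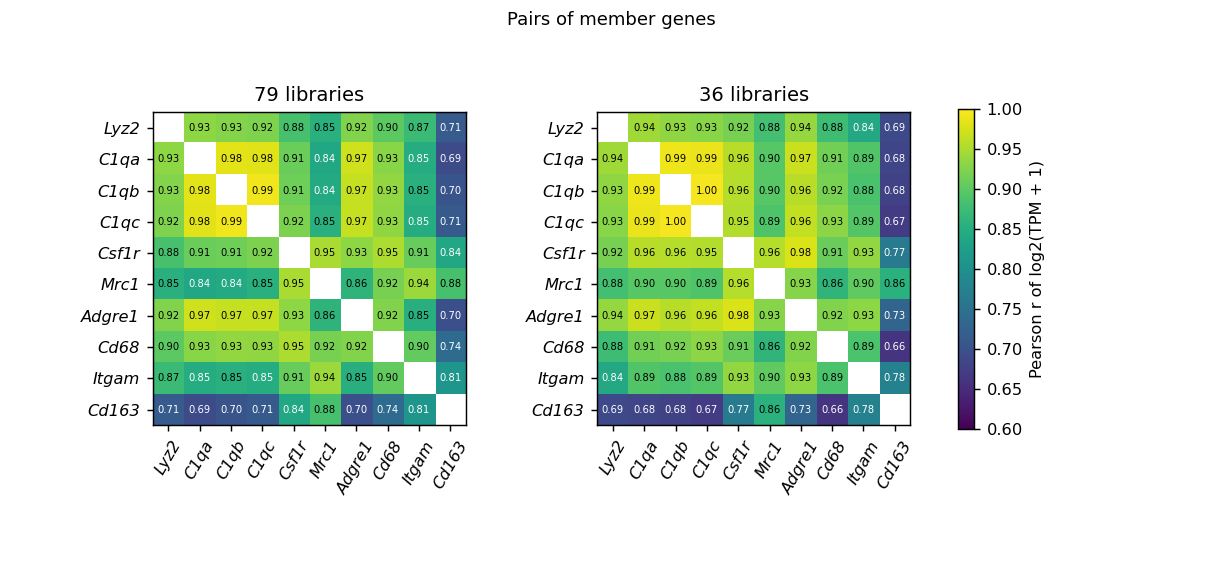
Pearson's r of log2(TPM + 1) for each pair of member genes within the 79 libraries (left) and the 36 libraries (right), on a color scale from 0.6 to 1. The C1q chains form the brightest block (0.98 to 1.00 after rounding), and the row of Cd163 is the darkest.

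All 10 members rose with Ptprc in both sets of libraries. In the 79, 82.8% of all genes were called positive with Ptprc and 2.2% negative, so a count of 10 of 10 is near that background. The background depended on the scaling. With median-of-ratios scaling 25.8% of genes were positive and 28.8% negative, and with TPM rescaled without the 20 most abundant genes 48.1% and 12.7%, while 10 of 10 members were positive under both. The r of the members was higher than that of most genes, from 0.702 for Cd163 to 0.927 for Cd68, with a member median of 0.890 against 0.524 over all genes. In the 36, where 35% of genes were called positive and 11.7% negative, r ran from 0.682 for Cd163 to 0.942 for Adgre1, with a median of 0.915 against 0.213. Every permutation p was 1e-05, the smallest possible. With the 2 libraries most distant from the median Ptprc left out, Cd163 had the lowest r, at 0.594 and 0.615.

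The slopes on Ptprc ran from 1.04 to 1.19 for the C1q chains, with C1qa highest in the 36 libraries. Those of Adgre1 (0.92 in the 79 and 0.99 in the 36) and Lyz2 (1.14 and 1.04) were also near 1. A doubling of Ptprc + 1 went with a change in C1qb of 1.11 ± 0.06 log2 units in the 79 libraries and 1.07 ± 0.08 in the 36 (SE). The slope was 0.67 ± 0.08 and 0.45 ± 0.08 for Cd163, which had medians of 1.16 TPM in the 79 and 0.27 TPM in the 36. At such levels the added 1 TPM narrows changes, so these slopes cannot be set against those near 1. Genes of other cells rose with Ptprc as well, and their part in the relation was not tested. In the 79 libraries, 6 of 6 fibroblast genes, 4 of 5 endothelial genes and 3 of the 3 tested T and NK cell genes rose with it. These counts are near the background there, where 82.8% of all genes were called positive. In the 36 they were 5 of 6, 5 of 5 and 3 of 3, where 35% of all genes were. No count is given for neutrophil genes, because W4548 and W1790, the 2 libraries highest in Ptprc, largely decided which passed the filter. S100a8, S100a9 and Retnlg had medians of 0.39, 0.31 and 0.28 TPM. They stood at 113.74, 120.31 and 40.03 TPM in W1790 and at 30.61, 29.26 and 88.52 TPM in W4548. The summed TPM of the neutrophil list ran from 0.41 to 156.64 in the 79 libraries and from 1.62 to 291.82 in the 36. That of the T and NK list ran from 1.37 to 26.09 and from 1.87 to 23.05. The defining neutrophil genes Ly6g, Mpo and Elane had medians of 0.0 TPM, and the medians of the 10 T and NK cell genes ran from 0.11 TPM for Cd3e to 1.34 TPM for Lck, with 2 of them at 1 TPM or more.

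Mki67 and the members rose together in the 79 libraries. Of the 10, 9 were called positive, and none negative, but so were 72.9% of all genes (1.44% negative), and the member median r of 0.518 lay near the 0.433 of all genes. With median-of-ratios scaling 6 members were positive, where 22% of genes were positive and 20% negative, and with TPM rescaled 7 were, where the shares were 33.5% and 8.2%. C1qb had the highest r, 0.634 (rho 0.648), with a slope of 0.61 ± 0.08 and an adjusted p of 1.03e-09 by limma. Adgre1 followed at r = 0.628 with a slope of 0.50 ± 0.07. C1qa and C1qc had r of 0.612 and 0.604. Mrc1 had r = 0.287 (adjusted p = 0.0135) and Itgam r = 0.349 (adjusted p = 0.0023). Both lost the call under either of these scalings and within mouse labels of 4 digits that begin with 4. Those labels leave out W5000 to W5005, in which Mki67 was 0.39 to 0.93 TPM. Without W5005 alone, the r of C1qb was 0.614. With the share of TPM held by the 20 most abundant genes as a term, the slope of Mrc1 turned to -0.0681 and that of Itgam to -4.00e-05, and with the number of genes detected as a term that of Mrc1 turned to -0.0514. Csf1r lost its call under median-of-ratios scaling (adjusted p = 0.185) and with either term. Cd163 did not pass, with r = 0.116, rho = 0.199 and an adjusted p of 0.343 by limma, and its slope was -0.17 with the number of genes detected as a term (adjusted p = 0.04).

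In the 36 libraries the direction was the opposite. All 10 members fell as Mki67 rose, where 21.6% of all genes were called negative and 23.3% positive and the median r of all genes was -0.021. With median-of-ratios scaling, 38.2% of genes were negative and 23.6% positive and 10 of 10 members fell, and with TPM rescaled the shares were 24% and 36.2% and 9 of 10 fell. The member r ran from -0.520 for Lyz2 to -0.396 for Cd68, and rho from -0.649 to -0.492. The permutation p of r ran from 0.00095 to 0.0164. Lyz2 had a slope of -1.12 ± 0.30 (adjusted p = 0.00335 by limma) and C1qa one of -1.10 ± 0.33 (adjusted p = 0.00724). With W370 and W4419, the 2 libraries most distant from the median Mki67, left out, r ran from -0.715 to -0.585. With each of the 36 libraries left out in turn, 7 to 10 members were called, and fewer than 10 in 5 of the 36 refits.

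Other genes fell with the members in those 36 libraries. Ptprc itself had r = -0.420 with Mki67. All 5 smooth muscle genes, 4 of 6 fibroblast genes, the 3 tested T and NK cell genes and 4 of the 6 tested genes of prostate epithelium also fell. Of all genes, 21.6% were called negative there. With TPM rescaled, 2 of the 5 smooth muscle genes fell, where 24% of all genes did. Their part in the relation was not tested. The relation weakened when the share of TPM held by the 20 most abundant genes was added as a term, to 3 members called in the 36 libraries and 4 in the 79. Among the mouse labels of 4 digits that begin with 4, which 15 of the 36 libraries carried, 5 members were called. The difference in direction between the 79 and the 36 was not tested.

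**Figure D3:**
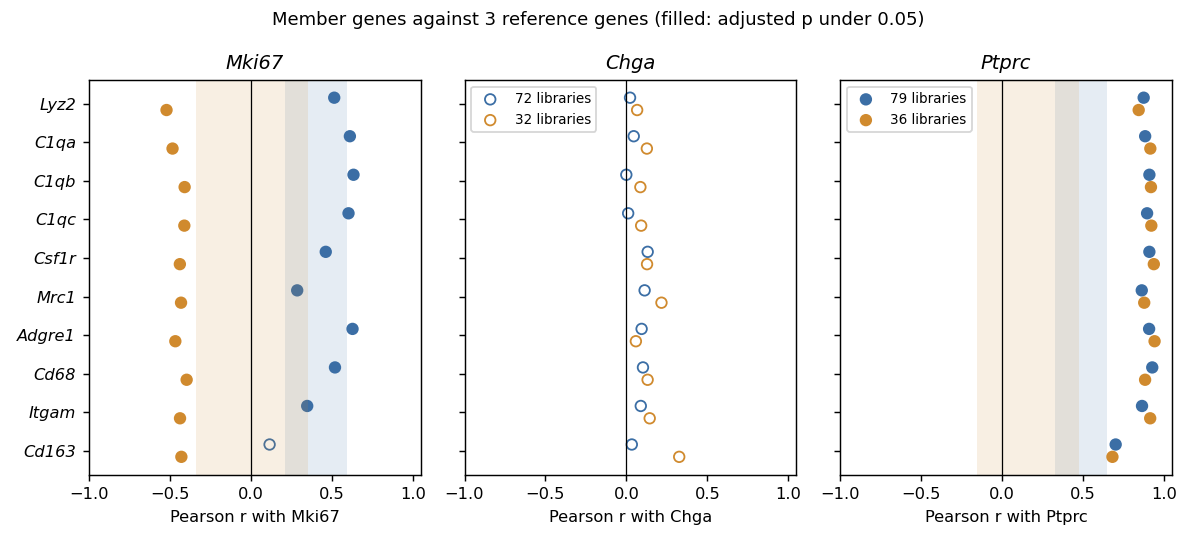
Pearson's r of each member with Mki67, Chga and Ptprc, within the 79 and 36 libraries (for Chga, within 72 and 32), with filled points for an adjusted p under 0.05 by limma. The shaded bands hold the genes from the 25th to the 75th percentile of r and were not drawn for Chga. The members lie to the right of both bands for Ptprc and to the left of the band of the 36 libraries for Mki67.

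At a given level of Ptprc the members parted. With Mki67 and Ptprc in 1 model over the 79 libraries, 4 members fell with Mki67 and 1 rose, where 8.32% of all genes were called negative and 43.1% positive. With median-of-ratios scaling those shares were 19.3% and 22.9%, again with 4 members negative and 1 positive. Cd163 had a slope of -0.37 ± 0.06 (adjusted p = 2.19e-06 by limma). The slope of Mrc1 was -0.30 ± 0.05 (adjusted p = 2.49e-07). Itgam had a slope of -0.18 ± 0.04 (adjusted p = 0.000346) and Csf1r one of -0.09 ± 0.04 (adjusted p = 0.0423). C1qb rose, with a slope of 0.13 ± 0.05 (adjusted p = 0.0455).

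Cd163, Mrc1 and Itgam, which encode a scavenger receptor, the mannose receptor and an integrin chain, passed under each of the 7 other settings tried. Those settings did not include the share of the 20 most abundant genes or the number of genes detected as a term. Such terms turned slopes of these genes on Mki67 alone. Csf1r lost its call without W4548 (adjusted p = 0.149), with ranks and within the labels that begin with 4. C1qb lost it without W4548 (adjusted p = 0.0733), within those labels (adjusted p = 0.478), with ranks and with TPM rescaled without the 20 most abundant genes. The slopes of C1qa, C1qc and Adgre1 were 0.11 ± 0.06, 0.09 ± 0.06 and 0.10 ± 0.05, and none passed, but Adgre1 passed with a pseudocount of 0.1 TPM (slope 0.12, adjusted p = 0.0259). In the 36 libraries 0 of 10 members passed in either direction by limma, where 21.6% of genes were positive and 8.8% negative, and Lyz2 was the 1 member with an unadjusted p under 0.05 (p = 0.0382, slope -0.43 ± 0.20). With TPM rescaled, Adgre1, C1qa and Itgam were negative in the 36, where 15.4% of genes were.

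**Figure D4:**
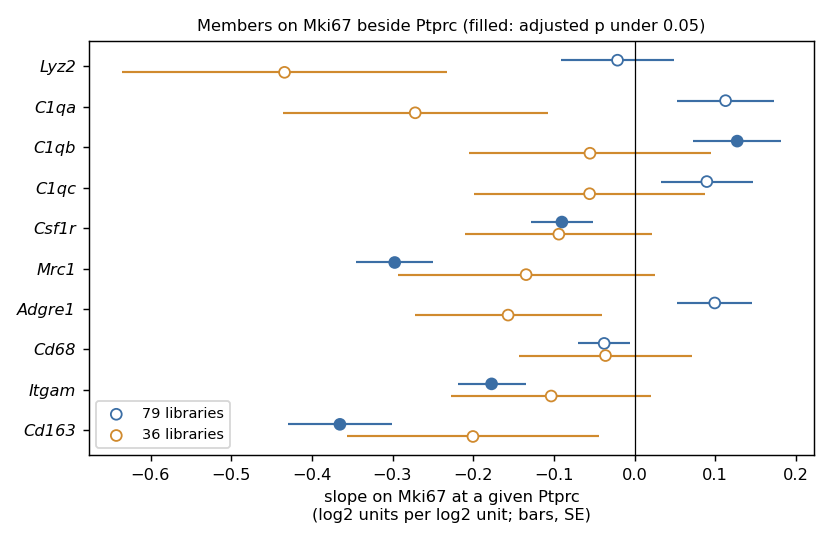
Slope of each member on Mki67 in a model that also holds Ptprc, in log2 units per log2 unit, with bars of 1 SE, for the 79 and the 36 libraries. Filled points have an adjusted p under 0.05. In the 79 libraries Cd163 (-0.37) and Mrc1 (-0.30) lie farthest to the left and C1qb (0.13) lies to the right.

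Chga showed no stable relation with the members. The level of Chga itself separated within the 79 libraries, and 4 of the 36 were set apart after their values were seen. In the 79, 72 lay between 0.06 and 0.81 TPM and 7 between 1.19 and 4.84 TPM. Over all 79, 0 of 10 members were called in either direction by limma, 3 had an unadjusted p under 0.05, and 18.7% of genes were called positive and 0.137% negative. Within the 72, where 0.869% of genes were called positive and 0% negative, r ran from -0.001 for C1qb to 0.131 for Csf1r, with permutation p from 0.274 to 0.995. Within the 7, r ran from 0.177 to 0.410, with exact permutation p from 0.345 to 0.685. Within the labels that begin with 4, which held 68 of the 79 libraries, 7 members were called positive, where 24.3% of genes were. Those labels leave out W5000 to W5005, in which Chga was 0.48 to 2.76 TPM and C1qb 2.76 to 5.56 TPM. Without W5001 alone, the r of every member over the 79 rose, for C1qb from 0.053 to 0.139. The part of these libraries in the relation was not tested.

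In the 36 libraries the Chga relation depended on single mice, among them 4 low in Chga. Over all 36, Itgam, Adgre1 and Csf1r fell as Chga rose, with slopes of -0.27 ± 0.08, -0.26 ± 0.09 and -0.24 ± 0.09, where 24.2% of all genes were called negative and 9.94% positive. Chga was 0.15 TPM in W1118, 1.15 in W1050, 1.23 in W1915 and 2.55 in W1790, and between 21.15 and 479.05 TPM in the other 32. Without W1790, only Itgam passed. C1qa was 61.87, 143.27, 126.94 and 188.2 TPM in those 4 libraries in the same order, against a median of 33.8 over the 36. Itgam was 4.24, 8.27, 9.71 and 14.7 TPM against 1.2, and Cd163 was 0.77, 1.3, 0.5 and 8.85 TPM against 0.27. All 4 libraries lay above the median of the 36 in these 3 genes. W992 was not one of the 4 (Chga 291.01 TPM), but without it 1 member was called, as without any 1 of the 4.

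Within the 32 libraries with Chga above 20 TPM, 0 of 10 members were called by limma, where 9.11% of genes were called positive and 0.198% negative. No member had a permutation p of r under 0.05 there. The r of all 10 members was positive, from 0.058 for Adgre1 to 0.326 for Cd163, with permutation p from 0.0683 to 0.751.

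**Figure D5:**
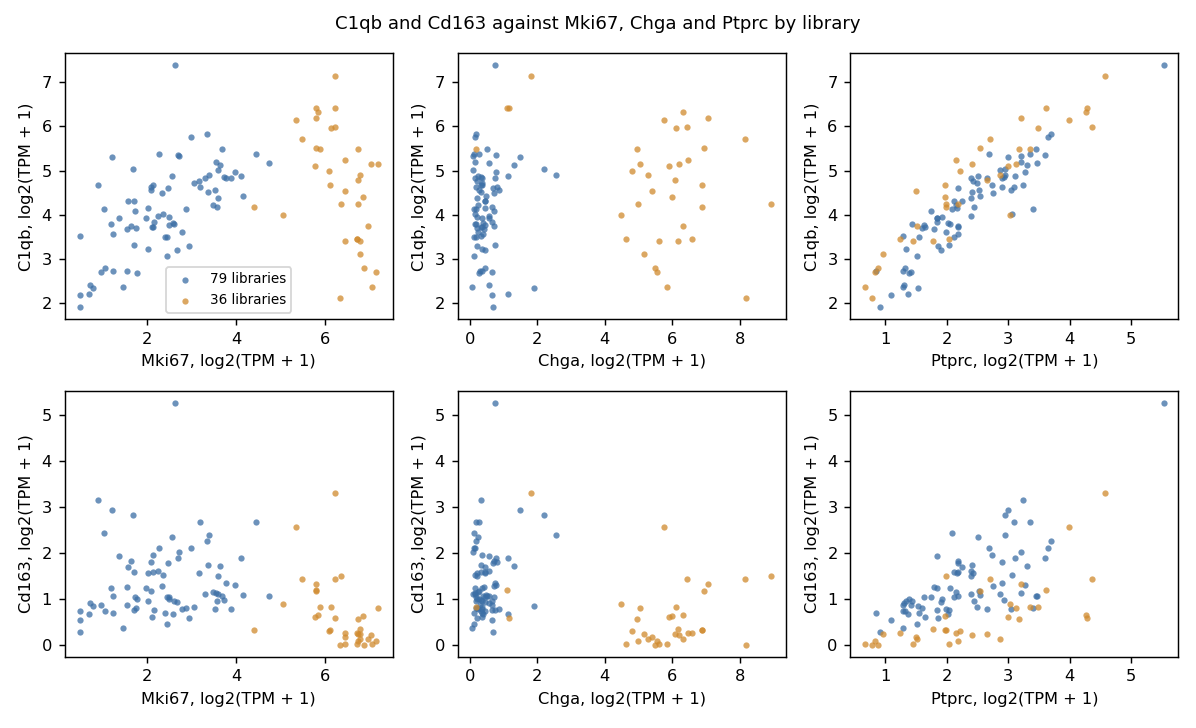
C1qb (top) and Cd163 (bottom) against Mki67, Chga and Ptprc as log2(TPM + 1), 1 point per library, with the 79 and 36 libraries in 2 colors. C1qb follows Ptprc in both sets, rises with Mki67 in the 79 (r = 0.634) and falls with it in the 36 (r = -0.408), and Cd163 in the 79 shows no such rise (r = 0.116).

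Of 19 other macrophage genes, 18 rose and 1 fell with Ptprc in the 79 libraries, where 82.8% of all genes rose, and 19 of 19 rose in the 36, where 35% did. With median-of-ratios scaling 18 rose in each, where 25.8% and 27.4% of all genes did. Msr1 and Cybb, 2 of the 19, had medians of 0.76 and 0.86 TPM and were highest in W4548 (25.26 and 8.65 TPM) and W1790 (12 and 5.69 TPM). Whether they pass the filter without those libraries was not tested. Fcer1g, the shared signaling chain of Fc receptors, had r = 0.956 and 0.960, and Tyrobp, the adaptor DAP12, ran from 1.6 to 125.87 TPM. Spi1 had a median of 1.42 TPM and r = 0.91 in the 79 and 0.93 in the 36. The gene that fell in the 79 was Mertk, a receptor for apoptotic cells, with r = -0.29 there and 0.81 in the 36. With Mki67, 18 of 19 rose in the 79 libraries, where 72.9% of all genes did, and 15 of 19 fell in the 36, where 21.6% did. With median-of-ratios scaling 13 rose and Mertk fell in the 79, and 17 fell in the 36.

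Genes of resident macrophages were fewer. Of 10, 6 passed the filter on low values, and 5 of them rose with Ptprc in the 79, a share near the 82.8% of all genes, and 6 in the 36. With median-of-ratios scaling 5 rose and Gas6 fell in the 79. Siglec1, 1 of the 6, had a median of 0.64 TPM and was highest in W4548 (10 TPM) and W1790 (9.65 TPM). Whether it passes the filter without those libraries was not tested. F13a1, which encodes a coagulation factor chain, ran from 0.02 to 137.68 TPM and Lyve1, a hyaluronan receptor, from 0.0 to 43.68 TPM, and W4548 was highest in both. Timd4, Vsig4, Marco and Clec4f did not pass the filter. Of 10 genes of activation states, 4 passed it, and Nos2 and Il10 had medians of 0.06 and 0.04 TPM.

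The rest of the classical pathway was tested for 16 of 17 genes. In the 79 libraries 13 rose and 1 fell with Ptprc, a share near the 82.8% of all genes that rose, and in the 36, 15 rose, where 35% of all genes did. With median-of-ratios scaling 12 rose in the 79 and Calr, C1s1 and C1rb fell. C3, the central complement component, had r = 0.80 with Ptprc in the 79 and 0.83 in the 36, and ran from 0.17 to 607.89 TPM. Itgb2, which pairs with Itgam, had r = 0.95 and 0.92. C3ar1, the receptor for a fragment of C3, had r = 0.93 and 0.91. C1rb, a protease of the C1 complex, fell with Ptprc in the 79 (r = -0.49), with a median of 278.72 TPM over all libraries and 3.92 TPM in W4548. C1ra, its near-identical copy, rose (r = 0.65), and 59.3% of its stretches of 31 bases are shared with other genes, so the levels of both are uncertain.

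Of 7 growth factors, chemokines and receptors that act on macrophages, 5 passed the filter. All 5 rose with Ptprc in the 79 and in the 36, where 82.8% and 35% of all genes did, and all 5 also rose with median-of-ratios scaling. Csf1, the main ligand of the Csf1r receptor, had a median of 2.6 TPM and r = 0.84 and 0.78. Il34, its other ligand, had r = 0.62 and 0.48. Ccr2, the receptor that draws monocytes from blood, had r = 0.91 and 0.85, and Ccl2, its ligand, 0.75 and 0.85. Csf2 had a median of 0.0 TPM.

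A further 10 genes were the nearest to the members by r with the mean z-score of the 10 over the 79 libraries, among 14612 genes. They were Cyth4, Cd53, Arhgdib, Pld4, Nckap1l, Itgb2, Lrrc25, Lgmn, Clec4a3 and Plek, with r from 0.948 for Plek to 0.970 for Cyth4. In the 36 libraries their r ran from 0.826 for Lgmn to 0.973 for Cyth4, and 4 of the 10 were also among the nearest 10 there. Ptprc ranked 38 in the 79 and 56 in the 36. By member, the nearest gene in the 79 was Pld4 for Adgre1, C1qa and C1qc, Cyth4 for Cd68 and Csf1r, Ly86 for C1qb, Cd53 for Lyz2, Pirb for Itgam, F13a1 for Mrc1 and Ednrb for Cd163. The r of Cd163 with Ednrb was 0.913 in the 79 and 0.761 in the 36, and that of Mrc1 with F13a1 was 0.961 and 0.942.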

How the data were processed

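Per the labels and the study's methods, the authors depleted ribosomal RNA, trimmed reads with Trimmomatic, mapped them with Bowtie2 2.2.5 to a Seqnature allele-specific transcriptome on GRCm38 and quantified genes with RSEM 1.2.20. The deposited values are TPM, 1 column per library, with no counts and no depth, so neither count models nor intervals could be applied. The annotation release is not given in the sources used here; names and positions came from GENCODE M21, which held 98.8% of genes. The study's text gives fewer mice than the 79 and 36 libraries, and all were used.

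Every gene with a mean of at least 1 TPM (14623) was fitted as log2(TPM + 1) by limma 3.58.1 in R 4.3.3, and p-values were adjusted by the Benjamini-Hochberg method over all genes fitted, two-sided, at 0.05. For each of 60 relations, r and rho were tested with 100000 permutations (Python 3.11.15, numpy 2.4.6), by exact permutation for the 7 libraries. Libraries were treated as separate sets if a 2-component normal mixture gave a BIC lower by more than 10, with Ashman D above 2 and no set under 6. The 4 libraries low in Chga fell under that minimum and were set apart after their values were seen. Genes named were the members, the reference genes, the genes of the lists, the 10 nearest genes and the nearest gene of each member. Members and lists were chosen with earlier results of these data known. Scripts were tested on simulated data.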

Additional observations from a re-analysis of the deposited data

How the results depend on the processing

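No paired analysis was possible because the labels give 1 group and no shared replicate numbers. The counts of members with Ptprc, the pairs and the C1q ratios kept their direction and stayed within 1.5 times of the reported value under the alternatives tried for each (pseudocount 0.1 for all, other scalings for the first 2, and filter, ranks, added terms and other sets of libraries for the first). Rescaling raised the median levels by 2.77 times for C1qc to 3.11 times for Lyz2, and lowered the spread between the 10th and 90th percentiles most for Adgre1, from 9.11 to 6.05 times. With Mki67, the number of members called moved to 4 in the 79 libraries and 3 in the 36 with the share of TPM held by the 20 most abundant genes as a term, and to 5 in the 36 within mouse labels of 4 digits that begin with 4. The lowest counts with a library left out, 7, came without W1514 or W462. In the 79, the slope of Mrc1 turned to -0.0681 with that term and to -0.0514 with the number of genes detected as a term, that of Itgam to -4.00e-05 with the first term, and that of Cd163 to -0.17 with the second (adjusted p = 0.04).

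With Chga, 7 members were called in the 79 libraries within labels that begin with 4, and 0 otherwise. In the 36, the count of 3 became 1 with no filter, after rescaling, with median-of-ratios or without W1790, and 0 with ranks, with the share term, within those labels, without the 2 farthest libraries or within the 32. It ranged from 1 to 7 with each library left out in turn, and was 1 without W1118, W1915, W1050, W1790 or W992. Slopes turned positive within those labels (Adgre1 0.27, Csf1r 0.22, Itgam 0.14) and within the 32 (0.0566, 0.115 and 0.106). Beside Ptprc, rescaling called 3 members negative in the 36 (Adgre1, C1qa and Itgam). The causes were not tested. With Ptprc in the 36, 22.9% of all genes were positive and 7.64% negative after rescaling. With Chga these shares were 9.78% and 11.3% in the 79 with median-of-ratios, and 21% and 16% in the 36 after rescaling. Counts of listed genes under other scalings and alternatives that left out W4548, W1790, the 2 farthest libraries, the libraries apart in Chga or each library in turn were chosen after seeing the data. With TPM alone, counting error could not be set apart from other spread, which limits Cd163 and Itgam most.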

Other observations

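The ratio of C1qb to C1qa within a library changed with Mki67 in the 36 libraries. This ratio was chosen after its values were seen, so its r is a description with no p. The difference in log2(TPM + 1) between C1qb and C1qa had r = 0.680 and rho = 0.694 with Mki67 there. It had r = 0.684 without the 2 libraries farthest in Mki67 and r = 0.681 without W1790. In the 79 libraries r was 0.255. Both genes lie on chromosome 4, and neither shares stretches of 31 bases with another gene.

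Ratios of C1qb to the scavenger and mannose receptors also followed Mki67, in the 79 libraries. Each was taken as a difference in log2(TPM + 1). With Mki67, r was 0.759 for C1qb over Cd163, 0.733 for C1qb over Mrc1, 0.726 for C1qb over Itgam and 0.676 for C1qb over Csf1r. Without W4548 the first 2 were 0.766 and 0.762. In the 36 libraries the same ratios had r of -0.222, -0.070, -0.132 and -0.110. These ratios were likewise chosen after the values were seen, and the difference between the 79 and the 36 was not tested. The medians of Cd163 and Itgam in the 79 were 1.16 and 1.73 TPM, and at such levels the added 1 TPM narrows their changes. C1qb itself had r = 0.634 with Mki67 there, and its part in the r of the ratios was not tested. No other pseudocount was tried for them.

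Levels of 2 genes of the activation list stood apart. Retnla had a median of 21.99 TPM, against 0.04 TPM for Chil3, and ranged from 0.0 to 130.91 TPM. Spp1 had a median of 1.28 TPM and a highest value of 412.58 TPM.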
